A study of Rattus norvegicus with 16 samples.

Results

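The early growth response factors Egr1, Egr2, Egr3 and Egr4 and the nuclear receptors Nr4a1, Nr4a2 and Nr4a3 were examined in rat dentate gyrus across a passive avoidance time course. They were found as every probe set on the array whose platform annotation names 1 of these 7 genes, which gave 15 of the 8740 probe sets that are not controls, for 7 of 4736 genes that such a probe set names alone. Total RNA had been hybridised to 16 single-colour Affymetrix RGU34A arrays, 1 sample to an array. Of the 7 groups, naive and 6 h have 3 arrays each, and 0 h, 2 h, 3 h, 12 h and 24 h have 2 each. All labels, those of the naive arrays included, describe the rats as passive avoidance trained; naive is taken here as untrained and the groups named by hours as trained. The labels do not say what event the hours count from, and give no strain, age or sex. They do not say whether replicates are separate animals or pools, so every p-value rests on variation among these samples alone, part of which may be technical.

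Both families are immediate early genes: their promoters are occupied by factors such as serum response factor and CREB that calcium and MAP kinase signals switch on, so transcription can start within minutes of neuronal firing without new protein synthesis. Egr proteins bind GC-rich DNA through zinc fingers and are held in check by the Nab corepressors, while Nr4a proteins are orphan nuclear receptors that act without a known natural ligand. In hippocampal granule cells Egr1, also called zif268, NGFI-A or Krox-24, is a standard readout of activity, and induction of both families after learning or seizures is usually brief.

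The stretches of promoter below are shown because neuronal activity is known to reach such genes through elements of the kinds marked. They are the 250 bases before the start that a RefSeq promoter table (build GRCr8) assigns to each gene. They are read 5′ to 3′ on the gene's strand. Shown are Egr1 and Nr4a1, whose brightest probe sets varied together over the arrays, with Egr2 and Egr4 beside them. Of the 7 genes, 5 were matched in that table; Egr3 and Nr4a3 were not. For Egr1 and Egr4 this start is the outer end of the annotated gene, whereas for Egr2, Nr4a1 and Nr4a2 it lies inside the annotated gene span, so that those stretches are internal to the gene's outermost limits. Capitals mark short cyclic AMP response elements (TGACG or, on the other strand, CGTCA) and CArG boxes, the binding site of serum response factor.
Egr1, chr18:26736828-26737077, plus strand: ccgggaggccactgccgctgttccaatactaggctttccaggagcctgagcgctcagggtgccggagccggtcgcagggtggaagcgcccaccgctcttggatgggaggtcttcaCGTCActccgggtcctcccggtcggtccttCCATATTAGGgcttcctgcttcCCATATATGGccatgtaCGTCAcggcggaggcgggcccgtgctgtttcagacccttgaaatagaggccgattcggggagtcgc
Egr2, chr20:21054442-21054691, minus strand: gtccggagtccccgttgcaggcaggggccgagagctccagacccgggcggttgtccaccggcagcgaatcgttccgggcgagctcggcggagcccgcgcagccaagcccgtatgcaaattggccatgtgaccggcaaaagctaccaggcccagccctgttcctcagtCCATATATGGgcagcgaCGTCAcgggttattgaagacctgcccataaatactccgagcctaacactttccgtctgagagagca
Egr4, chr4:119607818-119608067, minus strand: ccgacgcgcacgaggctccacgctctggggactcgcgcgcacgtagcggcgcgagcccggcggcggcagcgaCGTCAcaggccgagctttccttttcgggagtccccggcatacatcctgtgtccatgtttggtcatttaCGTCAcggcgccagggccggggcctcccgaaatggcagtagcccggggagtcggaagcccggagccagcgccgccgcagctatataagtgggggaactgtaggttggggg
Nr4a1, chr7:134259888-134260137, plus strand: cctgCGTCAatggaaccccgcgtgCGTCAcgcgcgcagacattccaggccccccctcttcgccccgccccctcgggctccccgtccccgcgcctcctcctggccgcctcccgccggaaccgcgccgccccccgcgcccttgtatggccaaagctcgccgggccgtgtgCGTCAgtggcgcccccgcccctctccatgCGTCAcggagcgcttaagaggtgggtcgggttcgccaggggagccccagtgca

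Egr1 held 2 CArG boxes (CCATATTAGG and CCATATATGG) and 2 short elements. Egr2 held 1 of each, with the same letters and at the same distance from the table's start as the nearer pair in Egr1, at bases 83 to 74 and 66 to 62 before it. Egr4 had 2 short elements and Nr4a1 had 4, neither with a CArG box, and Nr4a2 (chr3:62104888-62105137, minus strand) had 1 short element. Searched on both strands over the same 250 bases of 33469 promoters, the short element occurred in 18.2% and the CArG box in 1.5%. The full element TGACGTCA (1.59% of promoters), which contains the short element, and the Nr4a monomer element AAAGGTCA (1.24%) were found in none of the 5. The Egr element GCGNGGGCG (4.29%) was found once, in Nr4a1 at bases 73 to 65 before the start. These are matches of letters only.

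The deposited linear intensities differed in overall brightness, with trimmed means from 33.3 to 170. They were scaled to a trimmed mean of 105; values below 5.05 were set to that lowest level before log2 was taken, and testing was limited to probe sets above 16.9 on at least 2 arrays. Below, scaled intensity is the linear value before this lowest level was applied. Correlations between arrays ran from 0.908 to 0.973. Of the genes listed here for dentate granule neurons, Calb1 (289 to 498) and Nrgn (1350 to 3200) were well above the filter on every array. So were Gria1 (98.6 to 375) and Gria2 (193 to 350). Grin2b (45.7 to 72.8) and Grin2a (18.6 to 73.7) were above it on every array, and Camk2a (9.46 to 36.6) only on some. Camk4 was at the lowest level on 8 arrays and Tdo2 on 14, and Prox1, C1ql2 and Dsp have no probe set under those symbols. Whether the listed genes are particular to granule neurons was not tested. Of the pyramidal neuron list, Bok (193 to 340), Cck (184 to 479) and Nr3c2 (65.4 to 138) were also above the filter on every array. Spink8 was at the lowest level on 15 arrays, and Neurod6, Wfs1, Fibcd1 and Nov have no probe set under those symbols. The summed scaled intensity of 7 choroid plexus markers, led by Ttr, spanned 352 to 4794 in trained and 2351 to 5884 in naive arrays. The beta-actin control probe sets gave a 3′ over 5′ signal ratio, which goes up as RNA or its copies shorten, of 1.51 to 2.80 in trained and 1.49 to 1.70 in naive arrays. In bulk tissue, fewer cells of a type and less RNA per cell cannot be told apart.

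Of the 15 probe sets, 12 passed the filter, covering Egr1 (4), Egr4 (2), Nr4a1 (2), Nr4a2 (2) and Nr4a3 (2). None of the 12 passed limma's test after Benjamini-Hochberg adjustment over the 6220 tested probe sets, in any of the 6 comparisons of an hour with naive, in all trained groups against naive, or in F tests spanning the 7 groups or only the 6 trained ones. At an unadjusted p under 0.05, 1 probe set was past at 0 h, 4 at 2 h and 1 at 12 h. Over all tested probe sets, the shares under that p were 5% at 0 h, 7.67% at 2 h and 10.1% at 12 h. The count was 0 at 3 h (4.31% of all tested), 6 h (9.41%) and 24 h (4.44%), and in all trained groups (5.35%). It was also 0 in the F tests over the 7 groups (10.3%) and over the trained ones (10.8%). The 1 at 0 h was Egr1 (AF023087_s_at, 1.6-fold higher), and the 1 at 12 h was Egr1 by U75398_s_at (1.49-fold higher). At 2 h they were Nr4a3 (rc_AI176710_at, 1.74-fold higher), Egr4 (rc_AI144873_at, 2.28-fold lower) and 2 Egr1 probe sets with opposite signs. Of these 2, U75398_s_at was 1.51-fold higher and rc_AI176662_s_at 1.97-fold lower. Each of the 6 was measured on 2 arrays against 3 naive arrays.

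**Figure D1:**
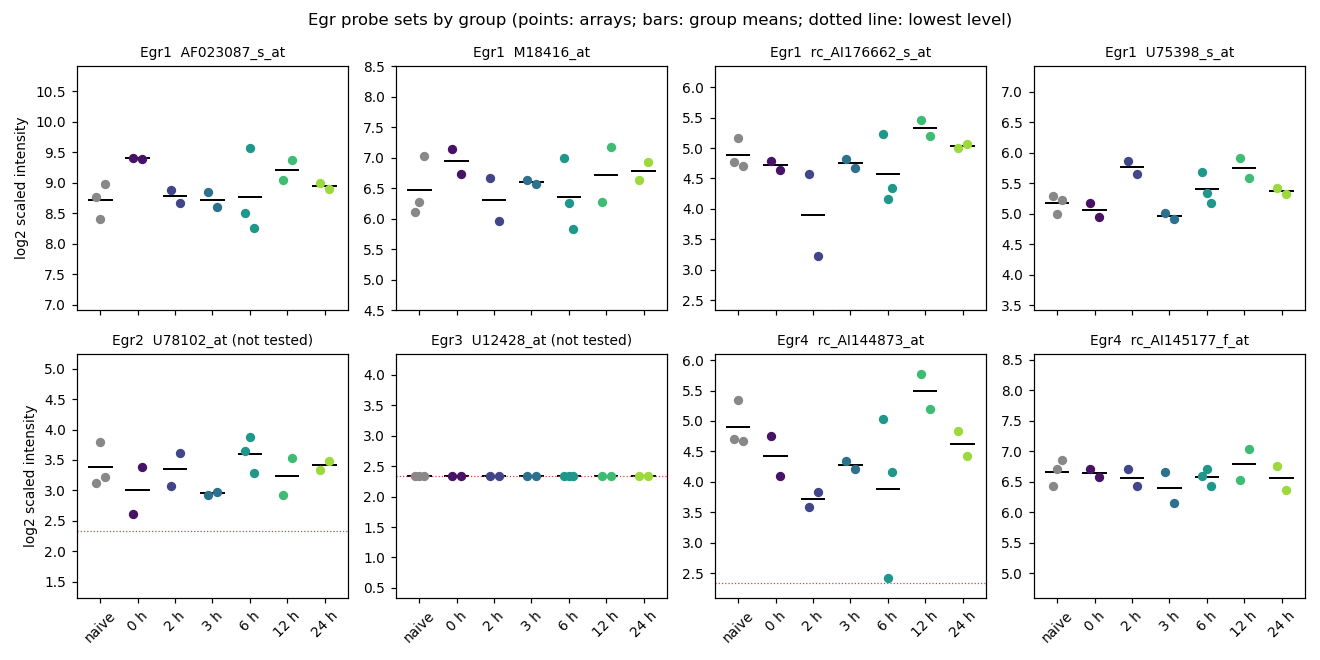
Log2 scaled intensity (vertical axis) of the 8 Egr probe sets in each group (horizontal axis); points are arrays, bars are group means, and the dotted line is the lowest level. The 2 arrays of 0 h lie above all 3 naive arrays by Egr1 probe set AF023087_s_at, and Egr3 lies at the lowest level on all 16 arrays.

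Egr1 was measured by 4 probe sets, and the brightest of them, AF023087_s_at, was highest at 0 h. Its scaled intensity was 437, 340 and 504 in naive arrays, 682 and 670 at 0 h, 471 and 408 at 2 h, 461 and 388 at 3 h, 363, 762 and 303 at 6 h, 527 and 663 at 12 h, and 509 and 474 at 24 h. Both 0 h and both 12 h arrays lay above every naive array, whereas the 6 h group held both the highest and the lowest array of the series. On the log2 scale the 0 h mean was 9.40 ± 0.02 (SD, n = 2) and the naive mean 8.72 ± 0.29 (SD, n = 3). The difference was 0.68 (SE 0.30, 95% interval 0.04 to 1.32, limma unadjusted p = 0.0375, adjusted p = 0.972). At 12 h it was 0.49 (SE 0.30, adjusted p = 0.588). Over all trained arrays the mean was 8.96 ± 0.40 (SD, n = 13) against 8.72 ± 0.29 (SD, n = 3) in naive arrays, higher than the naive mean on 9 of 13, with p = 0.354 by an exact two-sided permutation test over 560 splits.

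By level, the groups ran 0 h, 12 h, 24 h, 2 h, 6 h, 3 h and naive for this Egr1 probe set. The first 3 steps of that order had no overlap between neighbouring groups, and from 2 h down the groups overlapped. The gaps at those 3 steps (0.19, 0.27 and 0.16) were below the spread within groups (SD 0.38). The groups were sorted by their own means, and the share of all tested probe sets with such steps was not counted, so this is a description only. The beta-actin ratio was 2.62 and 2.30 at 0 h and 2.40 and 2.80 at 12 h, above the naive arrays. It was also above them at 2 h (1.96 and 2.69), 6 h (1.92, 2.30 and 2.02) and 24 h (1.85 and 1.77). At 3 h it was 1.51 and 2.15. With that ratio as a covariate the Egr1 difference was 0.40 at 0 h (adjusted p = 0.998) and 0.17 at 12 h (adjusted p = 0.966); the ratio overlaps with the comparison, and its part in the difference was not tested further.

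The other Egr1 probe sets were not all higher at 0 h. M18416_at was higher by 0.47 (SE 0.37) at 0 h, with scaled intensities of 142 and 106 there against 69.1, 77.3 and 131 in naive arrays, so that the groups overlapped. U75398_s_at (-0.12, SE 0.26) and rc_AI176662_s_at (-0.16, SE 0.40) were slightly below their naive means at 0 h. With the beta-actin ratio as a covariate these differences were 0.03 for U75398_s_at and 0.79 for rc_AI176662_s_at. At 2 h these 2 went opposite ways. U75398_s_at had 58.6 and 50.6 at 2 h against 39.5, 31.9 and 37.2 in naive arrays, a difference of 0.59 (SE 0.26, limma adjusted p = 0.628), and rc_AI176662_s_at had 23.9 and 9.30 against 27.3, 35.8 and 26.1, a difference of -0.98 (SE 0.40, limma adjusted p = 0.600). The difference of rc_AI176662_s_at ran from -1.66 without 2 h replicate 1 to -0.18 with the beta-actin ratio as a covariate. Neither 2 h group overlapped with naive. The suffix _s marks probe sets that Affymetrix could not make unique to a single transcript.

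At 12 h all 4 Egr1 probe sets were above their naive means: 0.49, 0.25 (SE 0.37), 0.44 (SE 0.40) and 0.58 (SE 0.26) for AF023087_s_at, M18416_at, rc_AI176662_s_at and U75398_s_at. M18416_at, with 77.7 and 144 at 12 h, was at -0.19 without 12 h replicate 2. On the other 3 both 12 h arrays lay above every naive array; the 12 h arrays of U75398_s_at, for example, had 60.7 and 47.9, against at most 39.5 in naive. The limma adjusted p-values were 0.487 to 0.821. With the beta-actin ratio as a covariate the difference of rc_AI176662_s_at at 12 h was 1.52, while that of AF023087_s_at was 0.17. At 24 h the 4 differences were 0.16 to 0.31 (adjusted p = 1 each).

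Egr2, which directs myelination in Schwann cells and is also induced by strong neuronal activity, was dim and was not tested. Its only probe set, U78102_at, ranged from 6.11 to 14.6 with a median of 9.95, under the filter on all 16 arrays. Its 3 h arrays (7.61 and 7.85) were below every naive array (8.72, 13.9 and 9.31), and its other groups overlapped with naive. Egr3, which acts downstream of the same signals and is needed for muscle spindle development, was at the lowest level on all 16 arrays by its only probe set, U12428_at (at most 4.84). No fold is given for it.

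Egr4, also known as NGFI-C, had a brighter and a dimmer probe set that differed from each other. The brighter, rc_AI145177_f_at, stayed within 70.9 to 132 over all arrays, and its differences from naive ran only from -0.27 to 0.12; the suffix _f marks probes shared by a family of sequences. The dimmer, rc_AI144873_at, had 12.0 and 14.3 at 2 h against 26.2, 40.6 and 25.4 in naive arrays. That is a difference of -1.19 (SE 0.55, 95% interval -2.35 to -0.03, limma unadjusted p = 0.0451, adjusted p = 0.636), with no overlap. It was also below every naive array at 3 h (20.2 and 18.5), and spread widely at 6 h (32.6, 5.39 and 18.0), where the difference was -1.03 (SE 0.49, limma adjusted p = 0.527) and, without 6 h replicate 2, -0.31. At 12 h it was at 54.7 and 36.9, a difference of 0.58 (SE 0.55). With the level of Ttr as a covariate the 2 h difference was -0.33 and the 12 h difference 1.48, and with the beta-actin ratio they were -0.60 and 1.38. Ttr was at 6.14 and 9.03 at 2 h, and at 10.8, 11.48 and 11.94 in naive arrays, on the log2 scale. Low Ttr was not particular to 2 h. It was at 8.11 and 6.56 at 3 h, at 7 and 7.81 at 12 h, and at 6.19 and 6.2 at 24 h. At 0 h Ttr was at 11.26 and 7.04, and at 6 h at 11.96, 10.32 and 11.03. The dimmer Egr4 probe set had 26.8 and 17 at 0 h and 28.5 and 21.5 at 24 h. The part of either measure in the Egr4 difference was not tested further.

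**Figure D2:**
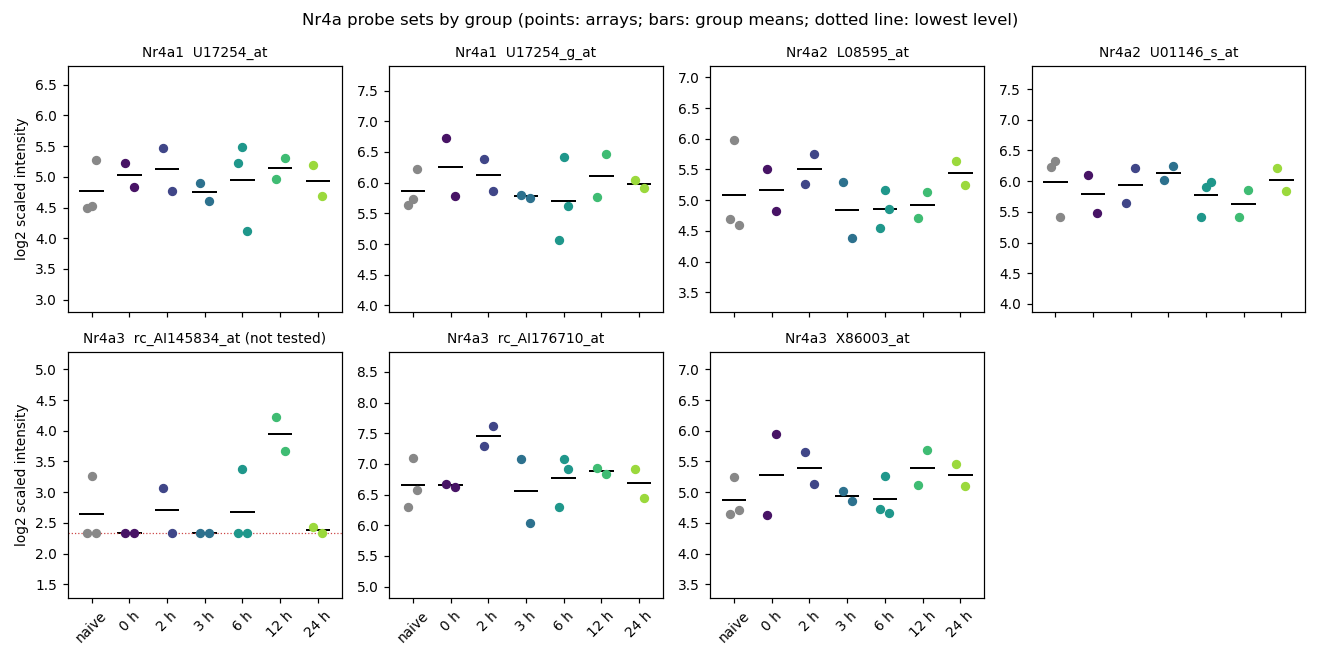
Log2 scaled intensity (vertical axis) of the 7 Nr4a probe sets in each group (horizontal axis); points are arrays, bars are group means, and the dotted line is the lowest level. The 2 h arrays lie above all naive arrays by Nr4a3 probe set rc_AI176710_at, and the groups of both Nr4a1 and both Nr4a2 probe sets overlap with naive.

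Nr4a1, also called Nur77 or NGFI-B, a regulator of steroid synthesis and T cell selection as well as a neuronal early gene, had 2 probe sets from 1 transcript record. By U17254_g_at it had 49.4, 53.0 and 74.8 in naive arrays, 106 and 55.4 at 0 h, 83.3 and 58.2 at 2 h, 55.7 and 53.7 at 3 h, 33.5, 85.4 and 49.3 at 6 h, 54.0 and 88.8 at 12 h, and 66.4 and 60.8 at 24 h. The arrays of a group were often far apart, and every trained group overlapped with naive. The largest difference was at 0 h (0.40, SE 0.38, 95% interval -0.40 to 1.20, limma adjusted p = 0.998); without 0 h replicate 1 it was -0.07. U17254_at gave differences between -0.01 and 0.38, all with overlap.

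Nr4a2, known as Nurr1 and needed for dopamine neurons, overlapped with naive in every trained group by U01146_s_at. Its values lay between 42.6 and 75.9 in trained arrays and between 42.9 and 80.5 in naive arrays, and the differences between -0.36 (12 h, SE 0.33) and 0.14 (3 h, SE 0.33). L08595_at ran from 0.43 higher (2 h, SE 0.42) to 0.25 lower (3 h, -0.25, SE 0.42). The naive arrays of that probe set were themselves 25.9, 63.0 and 24.0, and naive replicate 2 was the highest array of all. The limma adjusted p was at least 0.716 for both probe sets at all 6 hours.

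Nr4a3, or NOR-1, the family member whose gene is fused in extraskeletal myxoid chondrosarcoma, was highest at 2 h by its brightest probe set, rc_AI176710_at. Its scaled intensity was 78.6, 137 and 94.8 in naive arrays, 102 and 99.2 at 0 h, 157 and 195 at 2 h, 135 and 65.3 at 3 h, 78.8, 135 and 121 at 6 h, 123 and 115 at 12 h, and 121 and 87.4 at 24 h. Both 2 h arrays were above all others in the series and overlapped with no other group. The 2 h mean was 7.45 ± 0.22 (SD, n = 2) and the naive mean 6.65 ± 0.41 (SD, n = 3) on the log2 scale, a difference of 0.80 (SE 0.32, 95% interval 0.11 to 1.48, limma unadjusted p = 0.0254, adjusted p = 0.600). The order below it was 12 h, 6 h, 24 h, naive, 0 h and 3 h, with every pair of neighbours overlapping. X86003_at was 0.53 (SE 0.38) higher at 2 h, with 50.4 and 35.2 against 25.1, 37.7 and 26.1 in naive arrays, which overlapped; with Ttr as a covariate the difference was -0.28. The third, rc_AI145834_at, was not tested: it was at the lowest level on 10 arrays and above the filter on 1, 12 h replicate 1 (18.6).

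**Figure D3:**
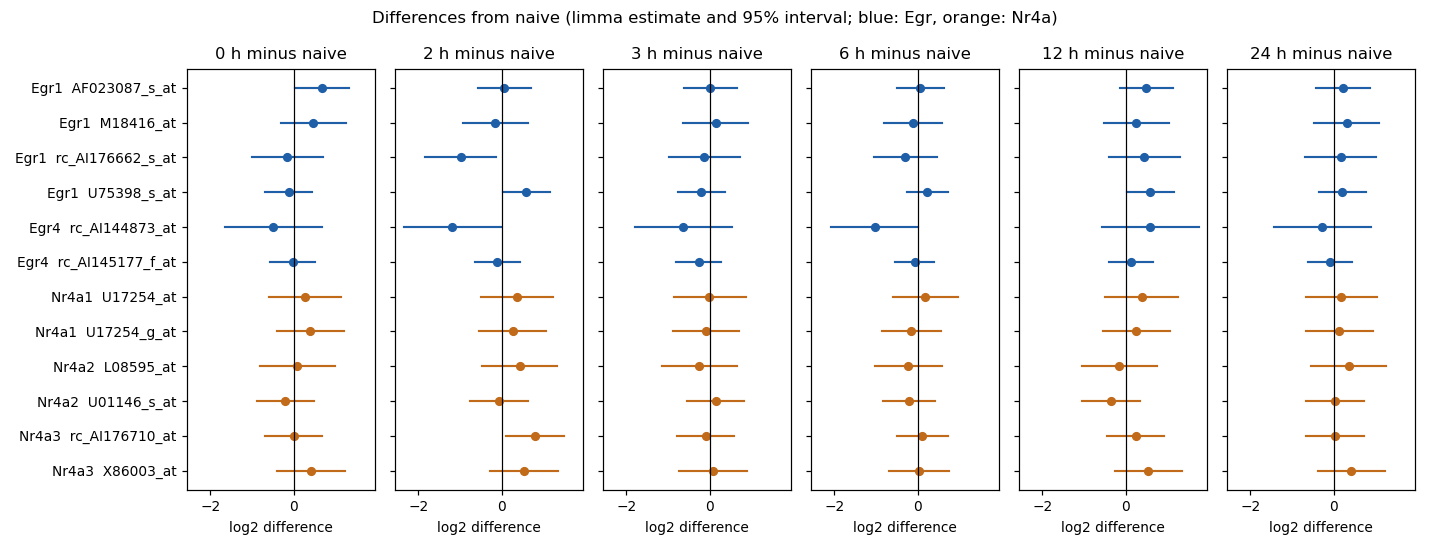
Log2 difference of each hour from naive (horizontal axis, 1 panel per hour) for the 12 tested probe sets (rows; blue Egr, orange Nr4a), with limma's estimate as a point and its 95% interval as a line. Intervals that exclude 0 are those of Egr1 AF023087_s_at at 0 h, of 4 probe sets at 2 h and of Egr1 U75398_s_at at 12 h, before any adjustment for the number of probe sets.

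Each hour's counts are set here against all tested probe sets. At 0 h, 6 of the 12 were above and 6 below naive (median difference 0.04, against -0.02 over all tested), and 1 had both arrays above every naive array where 10% of all probe sets did; 0 lay below every naive array, where 11.7% did. The single unadjusted p under 0.05 at 0 h compares with 5% over all tested, and 0% passed after adjustment. At 2 h, 7 were above and 5 below (median 0.16, against 0.03). There 2 lay above every naive array and 2 below, against 15.3% and 11.7% of all tested, and the 4 with an unadjusted p under 0.05 (33.3%) compare with 7.67%, while 0.0161% passed after adjustment. These 4 belong to 3 genes, and 2 of them are Egr1 probe sets with opposite signs. The summed choroid plexus markers were 433 to 1158 at 2 h and 2351 to 5884 in naive arrays. Low sums were not particular to 2 h: they were 503 to 632 at 3 h, 526 to 653 at 12 h and 352 to 376 at 24 h. At 0 h they were 498 to 3321 and at 6 h 1771 to 4794. The part of these markers in the 2 h differences was not tested beyond the Ttr covariate.

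At 3 h, 4 were above and 8 below (median -0.10, against -0.07), 0 lay above every naive array (7.3% of all tested) and 1 below (12%), and 0 had an unadjusted p under 0.05 (4.31%; 0% after adjustment). Median centring of the arrays moved the median of all tested probe sets at 3 h by 0.18 and turned that split to 8 above and 4 below. At 6 h, 5 were above and 7 below (median -0.10, against -0.03), with 0 above (4.34%) or below (6.56%) every naive array and 0 past an unadjusted p of 0.05 (9.41%; 0% after adjustment). The 12 h group had 10 above and 2 below (median 0.32, against 0.06, with 55.9% of all tested above). There 3 probe sets, all of Egr1, lay above every naive array (15.9%) and 0 below (11.8%), and 1 had an unadjusted p under 0.05 (10.1%; 0% after adjustment). At 24 h, again 10 were above and 2 below (median 0.17, against 0.00), 1 lay above every naive array (8.86%) and 0 below (11.8%), with 0 past an unadjusted p of 0.05 (4.44%; 0% after adjustment). All 6 oligodendrocyte markers were below naive at 24 h, each at an unadjusted p under 0.05 (median -0.89, 0 after adjustment), with sums of 2614 to 2874 at 24 h and 4170 to 5691 in naive arrays. Their part in the 24 h values was not tested.

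Over all trained groups, 8 of the 12 were above and 4 below naive (median 0.14, against -0.01), with differences from -0.51 (Egr4 rc_AI144873_at, SE 0.39) to 0.33 (Nr4a3 X86003_at, SE 0.27). With Ttr as a covariate both of these had the opposite sign, 0.23 for the Egr4 probe set and -0.36 for the Nr4a3 probe set. None had an unadjusted p under 0.05 (5.35% of all tested; 0% after adjustment). In the F tests the smallest p of a member was that of Egr1 U75398_s_at, 0.0698 over the 7 groups (adjusted p = 0.513) and 0.0601 over the trained times (adjusted p = 0.481). Of all tested probe sets 10.3% and 10.8% had an unadjusted p under 0.05 in these F tests, and 0% passed either after adjustment. The comparisons with naive share the same 3 naive arrays.

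The brightest probe sets of Egr1 (AF023087_s_at) and Nr4a1 (U17254_g_at) varied together from array to array. Over the 16 arrays they had Pearson r = 0.71 (permutation p = 0.00194) and Spearman rho = 0.76 (permutation p = 0.00083). Adjusted over the 20 pairs examined, these were 0.0388 and 0.0166. The relation was r = 0.68 without 6 h replicates 2 and 3, which lie farthest from the Egr1 median, and r = 0.70 for deviations from the group means, so it was present among arrays of the same group. Arrays share their RNA sample, labelling and scaling across all genes. The remaining Egr1 probe sets were not paired with Nr4a1, and the other Nr4a1 probe set, U17254_at, was not paired with Egr1. The share of all probe set pairs with such an r was not counted.

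The other pairs were looser. Egr4 (rc_AI145177_f_at) had r = 0.53 with Nr4a1 (adjusted permutation p = 0.174) and 0.48 with Egr1 (0.195), and no other pair of different genes exceeded 0.33. Nr4a2 and Egr1 had r = -0.26 (permutation p = 0.339). Between the probe sets of 1 gene, the Nr4a1 pair had r = 0.56 and rho = 0.70 (adjusted permutation p = 0.174 and 0.0317), the Nr4a2 pair r = 0.53 and the Nr4a3 pair r = 0.40. The Egr4 pair had r = 0.16, and the 6 pairs among the Egr1 probe sets ranged from -0.02 to 0.50. AF023087_s_at was thus closer to the brightest Nr4a1 probe set, U17254_g_at, than to any other Egr1 probe set (at most 0.45, with M18416_at).

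**Figure D4:**
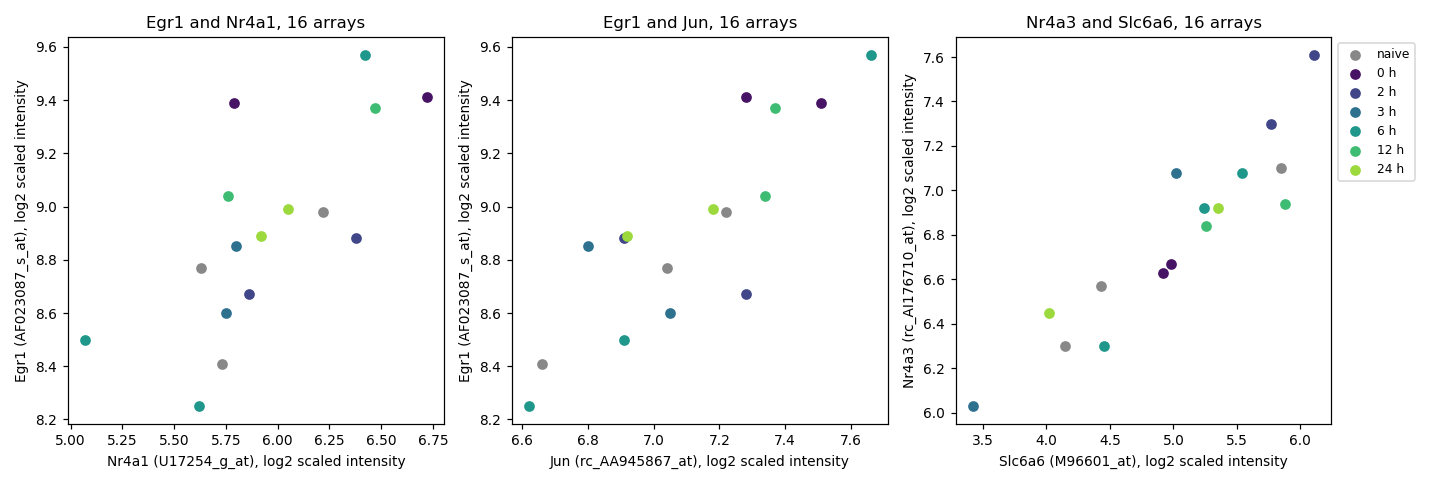
Log2 scaled intensity of Egr1 against Nr4a1 (left), of Egr1 against Jun by rc_AA945867_at (middle) and of Nr4a3 against Slc6a6 (right) on the 16 arrays, coloured by group. Both axes rise together in each panel (Pearson r = 0.71, 0.85 and 0.92), and arrays of 1 group, such as the 3 of 6 h, lie far apart along the same line.

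The probe sets most like each gene were sought over the same 16 arrays, as the 3 highest Pearson r of another gene. For Egr1 they were Jun, a component of the AP-1 transcription factor (r = 0.85, rho = 0.80), Slc10a2, a bile acid transporter (r = 0.81), and Tnks2, a tankyrase (r = 0.79). Jun by this probe set, rc_AA945867_at, had 155 and 182 at 0 h, 162 and 165 at 12 h, and 132, 101 and 149 in naive arrays. Its values at 6 h were 121, 202 and 98.3, with replicate 2 highest and replicate 3 lowest of the series, as for Egr1. The brighter Jun probe set, rc_AI175959_at, ran the other way, with 160 and 133 at 0 h, 113 and 122 at 12 h, and 244, 136 and 192 in naive arrays, and was at 104 on 6 h replicate 2. Its 12 h difference was -0.66 (SE 0.30, limma adjusted p = 0.485). For Nr4a1 they were Nmu, the peptide neuromedin U (r = 0.89), Dtd1 (r = 0.84) and Csf1, a macrophage growth factor (r = 0.83). Nr4a3 was most like Slc6a6, the taurine transporter (r = 0.92, rho = 0.91), Plpp3, a lipid phosphatase (r = 0.83), and the monoamine oxidase Maoa (r = 0.82). Egr4 was most like Acsl1 (r = 0.84), Fblim1 (r = 0.82) and Cdc42ep3 (r = 0.81), and Nr4a2 like the protein kinase C isoform Prkcd (r = 0.78), Churc1 (r = 0.77) and Pdlim3 (r = 0.77). These are the highest correlations among the 5125 tested probe sets with 1 gene symbol, those of the same gene left out. They are given as a description.

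The other activity-regulated genes likewise gave no call. Of 30 tested genes of such a list, 0 passed limma's test after adjustment in any comparison. The number above naive was 16 of 30 at 0 h, 18 at 2 h, 6 at 3 h, 11 at 6 h, 16 at 12 h and 12 at 24 h, with median differences of 0.03, 0.06, -0.20, -0.10, 0.03 and -0.12. Over all tested probe sets the shares above naive at these hours were 47.3%, 52.7%, 41.3%, 46.8%, 55.9% and 49.5%, with medians of -0.02, 0.03, -0.07, -0.03, 0.06 and 0.00. The 3 h count is open to the scaling that moved the median of all probe sets by 0.18. Fos, the AP-1 partner of Jun, stayed between -0.18 and 0.21 of naive at all hours (SE 0.23 to 0.25). Arc, a synaptic protein whose mRNA travels to active dendrites, lay between -0.35 (6 h, SE 0.19) and 0.11. Atf3, a stress-induced transcription factor, was at 0.90 at 12 h (SE 0.36, limma adjusted p = 0.439). Nptx2, a secreted pentraxin that gathers AMPA receptors, was at 0.72 at 12 h (SE 0.22, unadjusted p = 0.00557, limma adjusted p = 0.342) and 0.43 over all trained groups (SE 0.16, limma adjusted p = 0.922). The kinase Sgk1, which glucocorticoids also induce, was lower by 0.51 (-0.51, SE 0.22, adjusted p = 0.922) over all trained groups and below every naive array in 11 of 13.

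Kinases, factors and partners that act with Egr or Nr4a proteins gave 10 tested genes, and their reported targets 12. In both lists 0 passed after adjustment in any comparison, with medians between -0.11 and 0.10 for the first and -0.07 and 0.10 for the second. The calcineurin subunit Ppp3ca was 0.74 at 2 h (SE 0.21, unadjusted p = 0.00287, limma adjusted p = 0.388) and Mapkapk2, a kinase of the p38 pathway, -1.86 at 0 h (SE 0.55, adjusted p = 0.793). The synapsin Syn1, a reported Egr1 target, was -0.63 at 6 h (SE 0.21, adjusted p = 0.416), below every naive array in 3 of 3.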

How the data were processed

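RNA of 16 rat dentate gyrus samples was measured on Affymetrix RGU34A arrays, per the labels. The deposited table holds 1 linear intensity for each of 8799 probe sets on each array; how the authors obtained it (software, background, scaling) is not given in the sources used here. All 59 control probe sets were left out, arrays were brought to 1 trimmed mean (105, trimming 2%), the 20th percentile of all values (5.05) served as lowest level, and levels were expressed as log2. The 6220 probe sets above the pooled 40th percentile (16.9) on at least 2 arrays were tested. The number of arrays limits the precision.

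Gene names came from the platform annotation, updated through gene identifiers (6994 rows matched); 7006 probe sets had 1 symbol, 308 several and 1426 were not listed. Linear models over all 7 groups used limma 3.58.1 under R 4.3.3 (lmFit, then eBayes with a variance trend), with Benjamini-Hochberg adjustment over all 6220 at 0.05. They were first tested on simulated data. For the text, every Egr and Nr4a probe set was named, with any member of 3 gene lists (1 probe set per gene, the tested one with the highest mean) and the 3 probe sets most correlated with each gene. Permutation tests used all 560 splits, or 100000 permutations for correlations. The members and lists were chosen with earlier results of these data known. Alternatives covered the normalization, lowest level, filter, variance model, array weights, a replicate block, 2 covariates, fits of only the groups compared, each probe set by itself and leaving out each array.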

Additional observations from a re-analysis of the deposited data

Results flagged for a closer look

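1 result was flagged by hour. By Egr1 probe set rc_AI176662_s_at, both 12 h arrays (43.9 and 36.4) lay above every naive array and both 2 h arrays (23.9 and 9.30) below every naive array (26.1 to 35.8), a gap of 1.42 between the 12 h and 2 h means on the log2 scale. The difference between these 2 hours was not tested by itself; limma's F test over the 6 trained times gave this probe set an adjusted p of 0.509. Over all tested probe sets, 15.9% had every 12 h array above every naive array, and 11.7% had every 2 h array below. The share with both was not counted. No other Egr1 probe set showed both. By AF023087_s_at and U75398_s_at both 12 h arrays were also above every naive array. At 2 h, however, AF023087_s_at overlapped with naive, and U75398_s_at was above every naive array. M18416_at overlapped with naive at both hours. No group had the 4 arrays needed to look for single outlying arrays.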

How the results depend on the processing

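No Egr or Nr4a probe set passed limma's adjusted threshold under any of 28 alternatives (2319 values, lowest adjusted p 0.241). Of the 84 differences from naive, 29 kept their sign under all alternatives that gave a value, among them Egr1 at 0 h (AF023087_s_at, 0.40 to 0.81), Nr4a3 at 2 h (rc_AI176710_at, 0.62 to 1.07) and the dimmer Egr4 probe set at 2 h (-1.33 to -0.33); 146 values had the opposite sign. Several alternatives, such as the filter, the variance model and fits of only the groups compared, cannot change a difference. Kept signs are therefore partly fixed by the settings and are given as a description. The share of all tested probe sets that kept their sign was not counted. The 2 or 3 arrays per group limit what could be detected.

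Counts over all tested probe sets, 0 except for 1 at 2 h, moved as follows. With no filter they were 2 at 0 h, 8 at 2 h, 27 at 12 h, 1 for all trained groups, and 23 and 24 in the F tests over the 7 groups and the trained times. At 2 h the count was 0 with quantile normalization, either covariate or only the groups compared, and 2 with the lowest level at the 30th percentile. With the replicate block it was also 0 at 2 h. The beta-actin covariate gave 2 at 3 h, array weights 6 at 24 h, only the groups compared 2 at 12 h and 4 at 24 h, and eBayes without a trend 1 at 12 h and 2 in each F test. Leaving out each array in turn gave 0 to 11 at 2 h, 0 to 9 at 3 h, 0 to 29 at 6 h, 0 to 23 at 12 h, 0 to 12 at 24 h, 0 to 17 for all trained groups, and 0 to 8 and 0 to 7 in the F tests. The highest came without naive replicate 1 (2 h, 3 h, 24 h and all trained groups), without 12 h replicate 2 (12 h) and without 6 h replicate 3 (6 h and both F tests). The cause was not tested. Of the 15 probe sets named as most like a member, 4 were again among the 3 highest for deviations from the group means.

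The labels do not say that replicate numbers pair the samples. Same-numbered arrays of different groups had correlations of -0.20 to 0.19 in their deviations, over 0.1 in 12 of 43 pairs, and 7 of 16 arrays correlated best with their own number, so the replicate block is given only here.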
